A study of Mus musculus with 72 samples.

Results

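Antibody production was followed in these data through 10 genes: 6 immunoglobulin constant genes (Ighm, Ighg1, Ighg2b, Ighg2c, Igha and the kappa light chain gene Igkc) and 4 genes of the plasma cell (Jchain, Mzb1, Xbp1 and Sdc1). The genes are listed by name, and all 10 were found by Ensembl identifier among the 36047 mouse genes of each of the 6 tissue tables. The libraries are bulk RNA-seq of lung, kidney, liver, spleen, thymus and lung tumour from mice of genotype EGFR DEL19, which carry a mutant EGFR transgene and were given doxycycline for 25 days so that lung tumours formed. All mice then had intravenous injections of 1 of 3 genetic circuits at 10 mg/kg every 2 days, 7 in total, with tissue labelled day 14. The CMV-scrR circuit is the scrambled control, CMV-siRE makes an siRNA that targets EGFR, and the circuit CMV-GE11-siRE has the EGFR-binding peptide GE11 in addition. Each of the 18 combinations of tissue and circuit has 4 libraries, 72 in all. No untreated mice and no mice without the EGFR transgene are among these libraries, and the labels used here name neither the promoter that drives the transgene nor the strain or age. The labels number the libraries 1 to 4 in each group without saying that each came from its own animal, so the p-values cover the spread among the deposited samples, part of which may be technical.

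B cells first make IgM, whose heavy chain constant region is encoded by Ighm, and can switch to the constant genes of IgG subclasses (Ighg1, Ighg2b, Ighg2c), or of IgA (Igha), all of which lie in a row on 1 chromosome. Plasma cells secrete the antibody: Jchain encodes the joining chain that links IgM and IgA units, Mzb1 encodes an endoplasmic reticulum chaperone of B and plasma cells, Xbp1 a transcription factor of the secretory machinery, and Sdc1 encodes syndecan-1 (CD138), the usual surface marker of plasma cells. Xbp1 and Sdc1 are not limited to that lineage, since secretory cells use Xbp1 and epithelial cells and hepatocytes carry syndecan-1. Spleen is the main site of antibody-producing cells among the tissues sampled, thymus is a T cell organ with few B cells, and IgA is typical of mucosal sites such as the airways.

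In the GENCODE M21 annotation (GRCm38) the heavy chain constant genes are on the minus strand of chromosome 12, Ighm at chr12:113418558-113422730, Ighg1 at chr12:113325240-113330523, Ighg2b at chr12:113302965-113307933, Ighg2c at chr12:113285325-113288932 and Igha at chr12:113254830-113260236. Igkc is at chr6:70726435-70726966 on the plus strand. Jchain is at chr5:88519809-88527891 on the minus strand, Xbp1 at chr11:5520659-5525893 on the plus strand and Sdc1 at chr12:8771323-8793715 on the plus strand. The IgG constant genes are close relatives, and the results below separate Ighg2b from Ighg2c, so an exon in which they differ is shown. It is exon 2, the hinge, which joins the antigen-binding arms to the stem of the antibody. The sequences come from the GENCODE M21 transcripts, are written 5′ to 3′ on the coding strand, and have the in-frame cysteine codons, which can form the disulfide bonds between heavy chains, in capitals.
Ighg1 (chr12:113329844-113329882): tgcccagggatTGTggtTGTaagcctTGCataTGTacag
Ighg2b (chr12:113307261-113307326): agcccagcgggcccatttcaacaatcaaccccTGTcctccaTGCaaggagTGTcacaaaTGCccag
Ighg2c (chr12:113288263-113288325): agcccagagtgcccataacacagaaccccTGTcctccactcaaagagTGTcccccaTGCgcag
Ighg3 (chr12:113360529-113360576): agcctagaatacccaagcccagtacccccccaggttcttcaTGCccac

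The Ighg1 and Ighg2b hinges have 4 such codons, that of Ighg2c has 3 and that of Ighg3 has 1. Ighg2b and Ighg2c also have identical stretches. Their secreted transcripts share 56 windows of 50 bases, which is 5.26% of the 1065 windows of Ighg2b, and no window of 100 bases. No window of 50 bases of the secreted Ighg1 or Ighg3 transcript occurs in the secreted transcript of another of the 4. Only these secreted transcripts were compared, and exons of the 4 genes outside them were not. The longest run that Ighg2b and Ighg2c have in common is 78 bases in exon 3, and it is shown because a read inside it could come from either gene.
Ighg2b (chr12:113306869-113306946) and Ighg2c (chr12:113287869-113287946): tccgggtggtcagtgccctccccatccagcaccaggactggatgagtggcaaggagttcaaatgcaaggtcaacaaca
How the authors assigned such reads is not stated. Values of Ighg2b and Ighg2c are therefore uncertain by at least the reads of that stretch and of the other shared windows.

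The deposited values were read as gene counts scaled per library within each tissue, and sequencing depth is unknown. Levels across tissues are given in CPM, the values scaled so that each library sums to 1000000. The 5 marker genes listed for each of the other tissues were found in it at a median of 26.6 CPM or more, and the tumour libraries held the lung markers at 207 CPM (Sftpb) to 6239 CPM (Sftpc). The share of mitochondrially encoded transcripts moved with the circuit in tumour, where it averaged 68.6% ± 3.78 (SD, n = 4) in the controls, 60.1% ± 11.6 in CMV-siRE libraries and 20.6% ± 12.5 in CMV-GE11-siRE libraries. In spleen it was 1.59% to 1.74% in the controls and 1.90% to 2.26% in the libraries of both EGFR circuits. In lung the share also lay apart, at 1.74% to 1.98% in the controls, 2.23% to 2.51% with CMV-siRE and 2.05% to 2.79% with CMV-GE11-siRE. In kidney it was 11.72% to 12.57% in the controls and 9.60% to 11.68% with CMV-siRE. One CMV-GE11-siRE library each of kidney and thymus, number 4 in both, stood apart, with mean correlations to its group of 0.909 and 0.902 where the other 3 had at least 0.945 and 0.951. Their mitochondrial shares, 3.69% in kidney and 0.558% in thymus, were the lowest of their groups.

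Of the 10 genes 8 had their highest control level in spleen. In the CMV-scrR libraries Ighm averaged 4420 CPM ± 1582 (SD, n = 4) in spleen, 763 ± 177 in thymus and 141 ± 7.25 in lung. It averaged 36.3 ± 51.6 in tumour, 19.7 ± 3.56 in liver and 14.0 ± 2.26 in kidney. Spleen, thymus and lung did not overlap with their neighbours in that order, while tumour, liver and kidney did. The tables were scaled separately for each tissue, so these CPM levels are a description with no test. Mitochondrial transcripts averaged 68.6% of the total in control tumours, where the organ means ran from 1.66% in spleen to 12.15% in kidney. That share lowers the tumour CPM of all other genes, so the place of tumour in the tissue orders depends on the scaling. Orders without mitochondrial genes were not made. Bulk RNA cannot tell fewer cells of a type from less of a transcript per cell.

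In CPM, Igkc and Jchain ranked the tissues in the same order as Ighm, with the place of tumour subject to that scaling. The kappa chain gene Igkc averaged 2053 CPM ± 871 in spleen, 204 ± 77.3 in thymus, 92.7 ± 17.6 in lung and 3.30 ± 1.18 in kidney. Jchain averaged 437 CPM ± 191 in spleen, 62.5 ± 17.5 in thymus, 25.1 ± 7.43 in lung and 1.04 ± 0.463 in kidney. For both genes the range of tumour overlapped with those of lung and liver, and the other neighbours in the order lay apart. Igha was steady in the spleen of control mice, at 612 CPM ± 34.7, and its thymus mean of 119 ± 27.6 overlapped with the lung mean of 104 ± 28.8. Ighg1 averaged 50.2 CPM ± 27.4 in spleen and 0.465 ± 0.353 in lung, and its spleen range lay apart from all other tissues. Ighg2c spread widely among thymus libraries, from 2.92 to 129 CPM, and so overlapped with spleen.

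**Figure D1:**
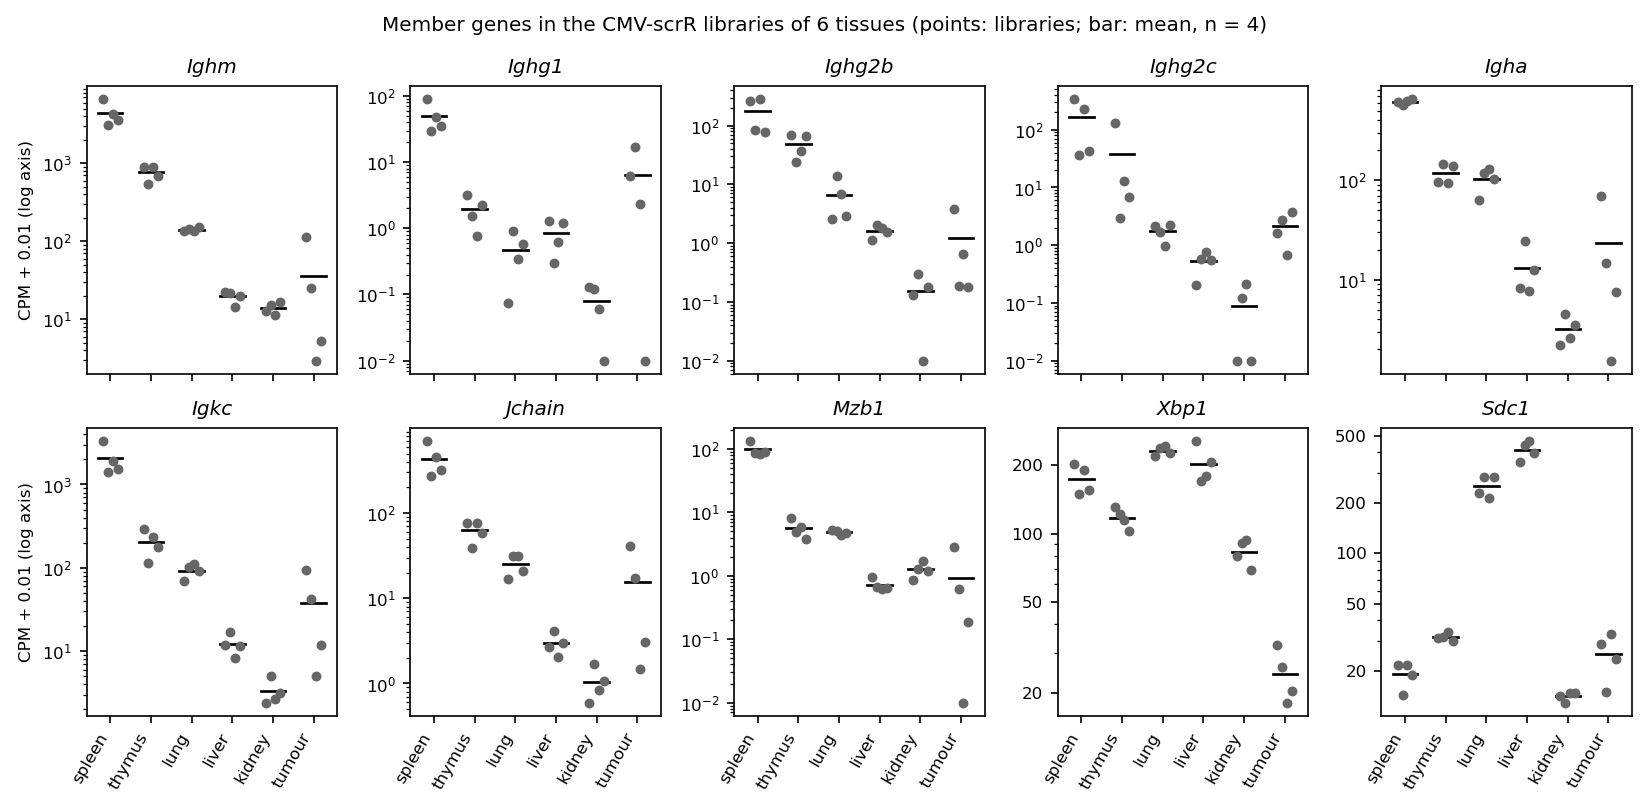
Level of each gene in the 4 CMV-scrR libraries of each tissue, in CPM with 0.01 added on a log axis. Points are libraries and bars are means. The 6 constant genes, Jchain and Mzb1 are highest in spleen, whereas Xbp1 has its highest mean in lung and Sdc1 in liver.

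Xbp1 and Sdc1 ranked the tissues differently. Xbp1 averaged 232 CPM ± 10.8 in lung, 204 ± 37.9 in liver, 175 ± 25.8 in spleen and 24.2 ± 6.35 in tumour. Sdc1 averaged 414 CPM ± 50.9 in liver and 253 ± 38.8 in lung, and only 19.2 ± 3.49 in spleen and 14.2 ± 0.881 in kidney. The Xbp1 range of liver overlapped with those of lung and spleen, while the liver and lung ranges of Sdc1 stood apart from each other and from the rest. Spleen, where Jchain was highest, was thus the next to last tissue for the plasma cell surface marker. Per kilobase of exon, spleen held 3860 CPM of Igkc, 2343 of Ighm, 229 of Igha, 174 of Jchain, 81.1 of Mzb1, 53.8 of Xbp1 and 5.03 of Sdc1. In liver Sdc1 and Xbp1 came first in these length-corrected levels, with 109 and 62.7 CPM per kilobase. Igkc, Ighm, Igha, Jchain and Mzb1 kept their spleen order in liver, with 22.7, 10.4, 4.94, 1.17 and 0.585. Ighg2b and Ighg2c did not keep their places. Ighg2c lay above Mzb1 in spleen, at 123, and below it in liver, at 0.391. Ighg2b lay below Mzb1 in spleen and above it in liver, at 0.607.

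The mix of heavy chain constant transcripts also differed between tissues and between circuits. It was taken as each gene's share of the summed values of Ighm, Ighd, the 4 Ighg genes, Ighe and Igha in a library. That share does not depend on how libraries are scaled, and it is described with no test. It is not corrected for exon length, which runs from 1326 bases for Ighg2c to 2678 for Ighg2b. The sum was as low as 283 in a kidney control and 321 in a tumour control, so small shares there rest on low values. With CMV-scrR, Ighm took 71.3% ± 3.46 (SD, n = 4) of the sum in spleen, 76.9% ± 5.34 in thymus and 75.9% ± 3.44 in kidney, and 45.9% ± 10.7 in lung. Igha took 10.6% ± 2.73 in spleen, 32.2% ± 5.46 in lung and 17.2% ± 3.26 in kidney. It took 31.7% ± 9.50 in liver and 30.1% ± 11.4 in tumour.

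The mean Ighm share was lower with both EGFR circuits than with CMV-scrR in all 6 tissues. In kidney it was 79.9%, 71.5%, 76.6% and 75.7% in the CMV-scrR libraries, 21.4%, 51.2%, 51.6% and 37.9% with CMV-siRE, and 30.7%, 69.7%, 49.4% and 31.3% with CMV-GE11-siRE. Neither EGFR circuit overlapped with the control there. Igha had the opposite order in kidney, with 13.8% to 21.6% of the sum in CMV-scrR libraries, 33.6% to 66.6% with CMV-siRE and 21.7% to 62.5% under CMV-GE11-siRE. In tumour the Ighm share was 30.3% to 57.4% with CMV-scrR, 4.38% to 22.7% with CMV-siRE and 5.07% to 11.97% under CMV-GE11-siRE. In spleen it was 68.9% to 76.4%, 59.0% to 67.1% and 49.0% to 64.2% in the same order. In liver the 4 IgG genes together held 8.62% ± 2.41 with CMV-scrR, 22.9% ± 1.25 with CMV-siRE and 17.4% ± 5.22 under CMV-GE11-siRE. The Ighm share in liver was 40.6% to 60.8% in the controls, and CMV-GE11-siRE libraries 1 and 4, with 46.9% and 59.9%, lay inside that range. In lung both EGFR circuits overlapped with the controls, at 31.0% to 56.1% with CMV-scrR, 30.4% to 40.3% with CMV-siRE and 19.5% to 51.7% with CMV-GE11-siRE. In thymus the controls held 73.8% to 84.9%. There CMV-siRE overlapped with them, at 61.85% to 77.2%, and CMV-GE11-siRE did not, at 48.4% to 73.0%.

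**Figure D2:**
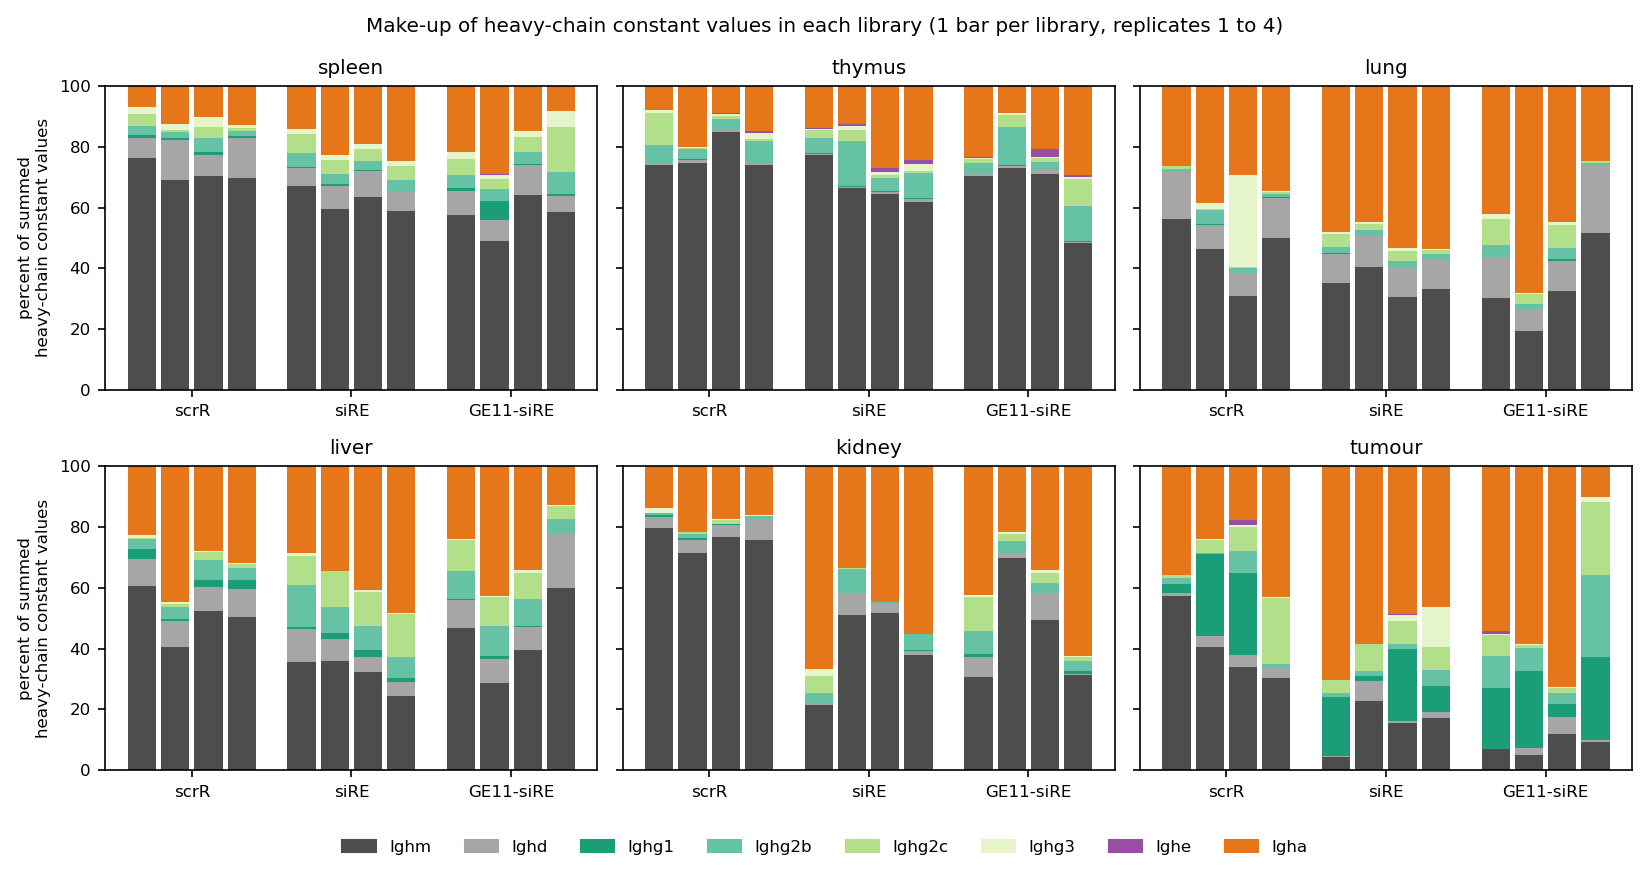
Share of each heavy chain constant gene in the summed heavy chain values, in percent, with 1 bar per library in replicate order within each circuit. Dark grey Ighm segments are shorter with the EGFR circuits in kidney, where the control libraries hold 71.5% or more, and 1 control lung library has a large Ighg3 segment.

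Single libraries carried an isotype of their own. Ighg3, another IgG constant gene, read 2793 in lung CMV-scrR library 3, which was 30.3% of its heavy chain sum, against 6.74, 103 and 27.2 in the other control lungs. The same library had an Iglv1 value of 1311 and an Ighv14-4 value of 329, the latter 33.9% of all its Ighv segments. In spleen, CMV-GE11-siRE library 2 had an Ighg1 value of 9782 and an Ighe value of 625, where the other 3 libraries of the group had at most 1506 and 58.1. Spleen CMV-GE11-siRE library 4 had 38306 for Ighg2c against at most 8387 in the others of its group. These values are given as measured, and their part in the comparisons below is shown by the fits without each library.

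Against this background, the 3 circuits were compared in each tissue with limma on log2(value + 1), with p-values adjusted over all genes tested in a comparison. A fold or log2 difference on that scale understates the change of low genes. Over the 18 comparisons 177 of 180 gene and comparison pairs could be tested, since Ighg1 was below the filter in kidney. An adjusted p under 0.05 was reached by 11 pairs, all higher with an EGFR circuit than with CMV-scrR. They were Igha, Jchain and Mzb1 in spleen, Ighg2c in liver, and Ighg2b, Igha, Xbp1 and Sdc1 in tumour. The 2 EGFR circuits are compared with the same CMV-scrR libraries in each tissue, so their differences from it are not independent.

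**Figure D3:**
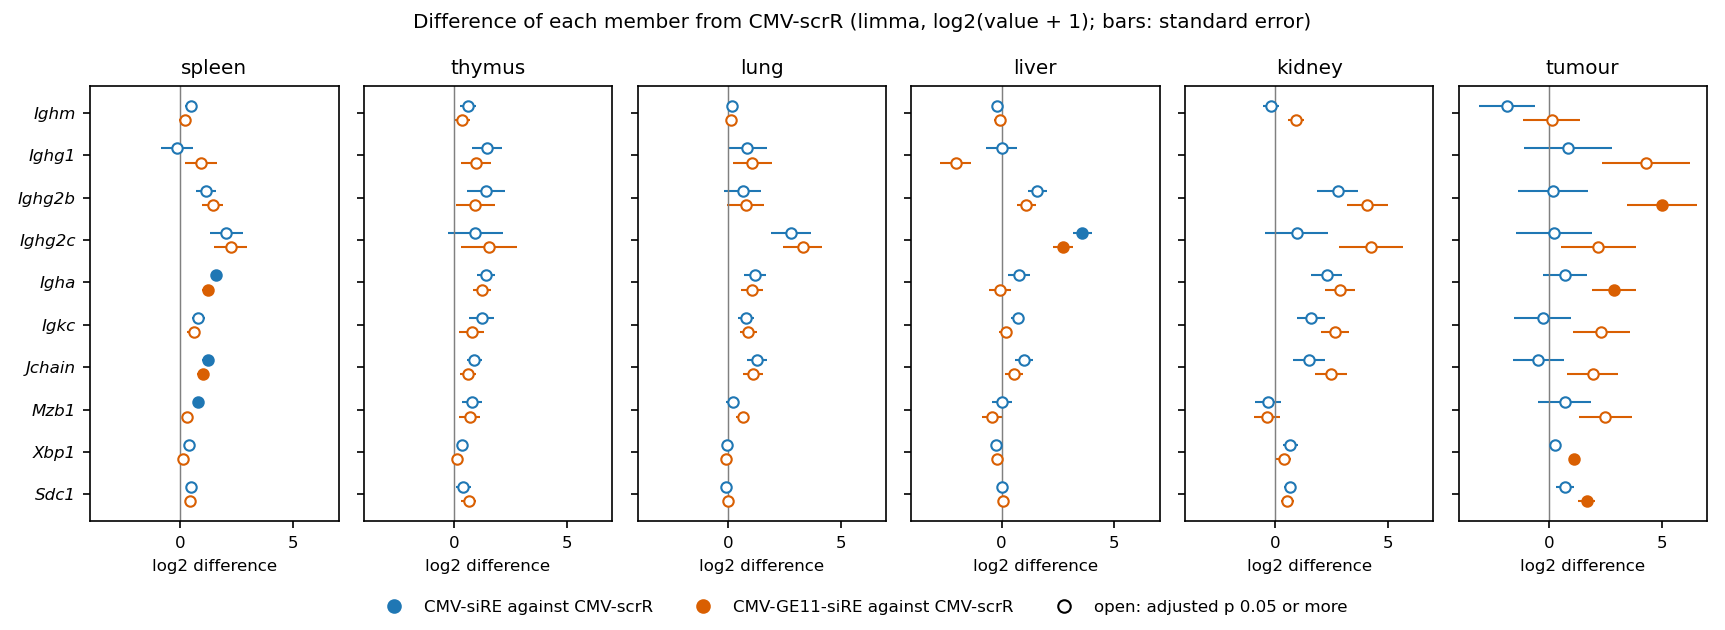
Log2 difference of each gene from CMV-scrR in each tissue, with its standard error, for CMV-siRE (blue) and CMV-GE11-siRE (orange). Filled points have an adjusted p under 0.05 by limma. Filled points lie in spleen, liver and tumour, and the widest bars are those of the IgG genes in tumour.

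Spleen had the IgA heavy chain and the joining chain higher with both EGFR circuits. With CMV-siRE, 3 of the 10 genes rose and none fell, where 1.73% of the 16015 genes tested were called higher. With CMV-GE11-siRE, 2 of 10 rose, where 2.29% of genes were called higher. The median difference over the 10 genes was 0.78 with CMV-siRE and 0.75 under CMV-GE11-siRE, against 0.00 and 0.01 over all genes.

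Igha was the most uniform of these changes. Its values in spleen were 12621, 11552, 12362 and 12357 with CMV-scrR, 31360, 35812, 34142 and 47422 with CMV-siRE, and 33327, 47452, 18260 and 21398 with CMV-GE11-siRE. All 8 libraries of the EGFR circuits lay above all 4 controls. The difference was 1.59 ± 0.24 (SE) with CMV-siRE, 3.01-fold, at an adjusted p of 0.00237 by limma. With CMV-GE11-siRE it was 1.20 ± 0.24, 2.295-fold, at an adjusted p of 0.0165.

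Jchain, whose product joins the IgA units, was 14654, 5572, 8954 and 6122 in the CMV-scrR spleens. It was 22802, 16397, 17138 and 21487 with CMV-siRE and 15421, 17911, 11456 and 22674 under CMV-GE11-siRE. The CMV-siRE libraries all lay above the controls, while CMV-GE11-siRE library 3 lay below control library 1. The difference was 1.24 ± 0.27 with CMV-siRE (adjusted p = 0.0200 by limma) and 1.00 ± 0.27 with CMV-GE11-siRE (adjusted p = 0.0464). The chaperone gene Mzb1 was 2786, 1786, 1660 and 1689 with CMV-scrR, 3439, 2649, 3481 and 3748 with CMV-siRE and 2176, 2528, 1924 and 3085 under CMV-GE11-siRE. Its difference by limma passed with CMV-siRE, at 0.77 ± 0.18 (adjusted p = 0.0270), and was 0.31 ± 0.18 with CMV-GE11-siRE (adjusted p = 0.315).

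Left out 1 at a time, every library but CMV-scrR 1 ended the CMV-GE11-siRE call of Jchain (adjusted p 0.0503 to 0.109 by limma), as did a fit on only the 8 libraries compared (0.0842). The CMV-siRE call of Jchain was lost without CMV-scrR 2 or 4 or CMV-siRE 1 or 4 (0.0516 to 0.0584), that of Mzb1 without CMV-scrR 2, 3 or 4 or CMV-siRE 1, 3 or 4 (0.0637 to 0.0739), and the CMV-GE11-siRE call of Igha without CMV-GE11-siRE 1 (0.0543). With the mitochondrial share as a covariate, which separates the controls from the EGFR circuits in spleen, none of the 5 calls passed at about the same or larger differences (Igha 1.61 and 1.22, adjusted p = 0.668 and 0.687).

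**Figure D4:**
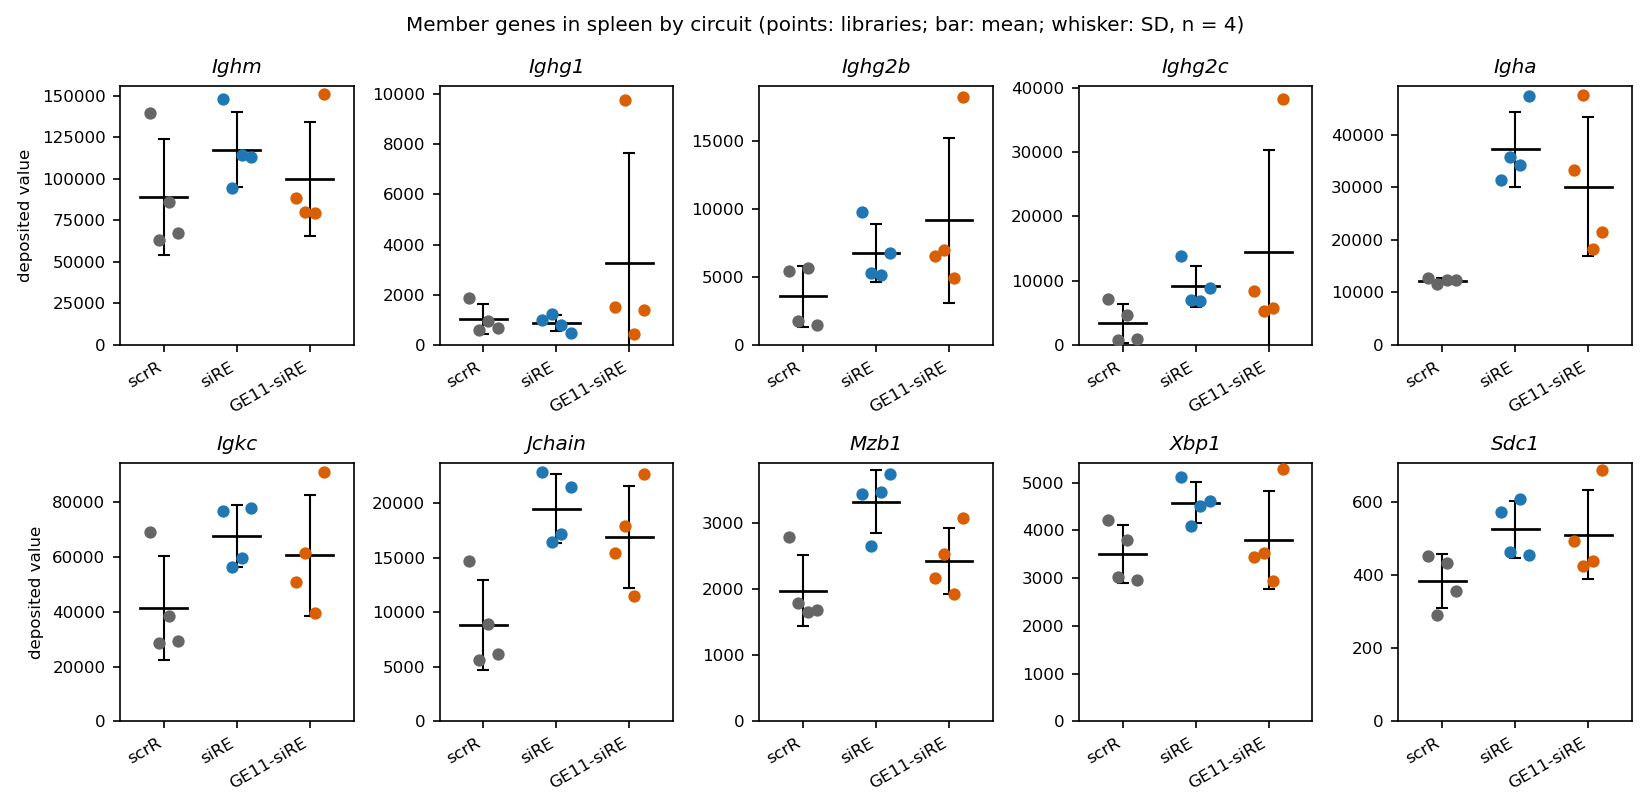
Deposited values in spleen by circuit, each axis starting at 0. Points are libraries, bars are means and whiskers are 1 SD (n = 4). The 4 control values of Igha lie between 11552 and 12621, below all other libraries.

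The other constant genes did not pass in spleen. Ighg2c was 7113, 749, 4613 and 828 with CMV-scrR, 13763, 6971, 6807 and 8824 with CMV-siRE and 8387, 5191, 5781 and 38306 under CMV-GE11-siRE. Control libraries 2 and 4 were low and 1 and 3 were high, and the differences of 2.04 ± 0.73 (adjusted p = 0.129 by limma) and 2.22 ± 0.73 (adjusted p = 0.0821) had wide errors. Ighg2b, its neighbour, differed by 1.13 ± 0.46 and 1.42 ± 0.46 (adjusted p = 0.183 and 0.0803). Igkc differed by 0.79 ± 0.28 and 0.58 ± 0.28 (adjusted p = 0.129 and 0.223), and Ighm by 0.46 ± 0.26 and 0.18 ± 0.26 (adjusted p = 0.338 and 0.697). For Xbp1 the values were 0.40 ± 0.16 and 0.10 ± 0.16 (adjusted p = 0.187 and 0.746), and for Sdc1 0.46 ± 0.18 and 0.41 ± 0.18 (adjusted p = 0.163 and 0.180).

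The variable segments, the other end of the antibody transcript, were also higher in spleen. Of 348 segments named Ighv, Igkv or Iglv, 192 could be tested there. With CMV-siRE 51 rose and none fell, beside 1.73% of all genes called higher, and the median difference was 0.95. With CMV-GE11-siRE 39 of 192 rose and 0 fell, beside 2.29% of all genes called higher, and the median was 0.86. Ighv1-7 rose with CMV-siRE from a mean of 80.6 to 404 (difference 2.33 ± 0.22, adjusted p = 0.000129 by limma). Igkv6-23 rose with CMV-GE11-siRE from 334 to 1709 (difference 2.07 ± 0.38, adjusted p = 0.0125 by limma). The summed Ighv values ran from 8404 to 14120 in the CMV-scrR spleens, from 17528 to 27656 with CMV-siRE and from 15931 to 38094 with CMV-GE11-siRE, so neither EGFR circuit overlapped with the control. The most abundant Ighv segment of a spleen library held 4.64% to 12.1% of that sum. Reads of near-identical segments may be split between them, so single segments are uncertain and the segments counted are not independent of each other.

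Of the general B cell markers few moved. The 14 B cell genes, all detected in spleen, summed to 4194 to 6833 CPM with CMV-scrR, 5758 to 7398 with CMV-siRE and 5335 to 5850 under CMV-GE11-siRE. Bank1, a B cell adaptor, was the 1 gene of 14 that rose with CMV-siRE (0.48 ± 0.12, adjusted p = 0.0396 by limma), and none passed with CMV-GE11-siRE. Of 16 plasma cell programme genes, Fkbp11, a peptidyl-prolyl isomerase of the secretory pathway, rose by 1.35 ± 0.24 with CMV-siRE (adjusted p = 0.00604) and Cd38 by 0.38 ± 0.10 (adjusted p = 0.0408). Tent5c, a poly(A) polymerase of plasma cells that red cell precursors also use, fell by 1.21 (adjusted p = 0.00689). None of the 16 passed with CMV-GE11-siRE. Macrophage genes moved beside the antibody genes: 3 of 9 rose with each circuit, among them the scavenger receptor gene Marco (2.39 ± 0.24 and 1.45 ± 0.24, adjusted p = 0.000147 and 0.00823 by limma). The list's 10 members, all detected, summed to 1012 to 1810 CPM with CMV-scrR, 1667 to 1969 with CMV-siRE and 1280 to 1956 under CMV-GE11-siRE, and their part in the differences was not tested.

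In liver the IgG2c heavy chain was higher with both EGFR circuits, from a very low control level. One gene of 10 rose with CMV-siRE, where 2.06% of 14484 genes were called higher, and the same gene with CMV-GE11-siRE, where 2.19% were. Ighg2c was 4.02, 12.2, 15.2 and 10.8 with CMV-scrR, 149, 92.5, 136 and 135 with CMV-siRE and 101, 125, 62.1 and 28.8 under CMV-GE11-siRE. All libraries of both EGFR circuits lay above the controls. The differences were 3.58 ± 0.44, 11.99-fold (adjusted p = 0.00110 by limma), and 2.73 ± 0.44, 6.63-fold (adjusted p = 0.00648).

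Ighg2b, the relative whose exon 3 shares the 78 bases shown above, read 22.8, 43.2, 36.5 and 30.2 in control liver. It was 215, 68.4, 99.3 and 66.3 with CMV-siRE and 91.4, 128, 64.9 and 31.7 under CMV-GE11-siRE. The CMV-siRE libraries lay above the controls, yet the difference of 1.59 ± 0.43 missed the threshold (adjusted p = 0.0541 by limma), as did that of 1.09 ± 0.43 with CMV-GE11-siRE (adjusted p = 0.163). Without CMV-GE11-siRE library 4 both Ighg2b differences passed (1.59 and 1.47, adjusted p = 0.0277 and 0.0495), and the CMV-siRE one also without CMV-GE11-siRE library 2 (adjusted p = 0.0491). Ighm differed by -0.18 ± 0.24 and -0.08 ± 0.24 (adjusted p = 0.726 and 0.890). Xbp1 and Sdc1, with values of 2918 to 5199 and 7163 to 10794 over all 12 livers, had differences between -0.26 and 0.08.

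The B cell genes in liver summed to 40.2 to 58.5 CPM with CMV-scrR, 37.6 to 80.6 with CMV-siRE and 44.5 to 47.5 under CMV-GE11-siRE, and none of 14 passed with either circuit. Jchain read 40.6 to 87.5, 73.7 to 165 and 39.6 to 202 in the same order of circuits, with overlapping groups. Ighg1, at 0 to 26.6 over the 12 livers, had the 1 large difference in the other direction, -2.03 ± 0.70 with CMV-GE11-siRE (adjusted p = 0.118 by limma). Cxcl13, a chemokine that attracts B cells, rose with CMV-siRE by 1.70 ± 0.43 (adjusted p = 0.0398 by limma). Fcgr2b, the inhibitory IgG receptor, rose with both circuits, by 0.65 ± 0.12 each (adjusted p = 0.0120 and 0.0104). T cell genes summed to 20.3 to 29.8 CPM with CMV-scrR, 32.4 to 87.6 with CMV-siRE and 18.3 to 58.2 under CMV-GE11-siRE, and their part was not tested. The liver calls of Ighg2c held in all 20 other fits of each comparison.

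In tumour, Ighg2b, Igha, Xbp1 and Sdc1 rose with CMV-GE11-siRE, and the first 2 of these were lost without 2 libraries. The count was 4 of 10, where 22.1% of the 14044 genes tested were called higher, so it stands in a comparison in which many genes moved. The median difference of the 10 was 2.26, against 0.05 over all genes. With CMV-siRE none of the 10 passed by limma, and 0.256% of genes were called. None had an unadjusted p under 0.05, where 21.4% of all genes did.

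Ighg2b was 102, 3.77, 24.2 and 6.33 in the CMV-scrR tumours, 16.3, 9.86, 23.3 and 32.5 with CMV-siRE and 1568, 128, 25.9 and 18616 under CMV-GE11-siRE. Libraries 1 and 4 of CMV-GE11-siRE were far above the rest and library 3 was inside the control range. The difference was 5.02 ± 1.54 (adjusted p = 0.0190 by limma). Igha was 1882, 310, 56.8 and 275 with CMV-scrR, 800, 406, 734 and 284 with CMV-siRE and 8103, 976, 511 and 6799 under CMV-GE11-siRE, with a difference of 2.88 ± 0.98 (adjusted p = 0.0302). Without libraries 1 and 4 of CMV-GE11-siRE, a choice made after seeing the data, the difference was 1.76 for Ighg2b (adjusted p = 0.255) and 1.19 for Igha (adjusted p = 0.389), and neither passed. Leaving out single libraries, the Ighg2b call was also lost without CMV-scrR 2 or CMV-GE11-siRE 1 (adjusted p = 0.0536 and 0.0544 by limma), and the Igha call without CMV-scrR 2, 3 or 4 or CMV-GE11-siRE 1 or 4 (0.0549 to 0.0940).

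The same 2 libraries were the highest of their group for the remaining antibody genes. Without CMV-GE11-siRE library 3, Ighg1, Igkc and Jchain passed too (adjusted p = 0.0272, 0.0394 and 0.0476 by limma). Igkc was 2549, 885, 187 and 436 with CMV-scrR and 8482, 730, 319 and 59133 with CMV-GE11-siRE (difference 2.33 ± 1.27, adjusted p = 0.154 by limma). Ighg1 was 167, 353, 86.3 and 0 with CMV-scrR and 3005, 424, 30.8 and 18808 with CMV-GE11-siRE (difference 4.29 ± 1.94, adjusted p = 0.0897). Jchain was 1101, 364, 55.0 and 112 with CMV-scrR and 1985, 337, 111 and 7385 with CMV-GE11-siRE (difference 1.94 ± 1.13, adjusted p = 0.178). For each of these, libraries 2 and 3 lay inside or close to the control range. The B cell surface gene Ms4a1 reached 309 under CMV-GE11-siRE, where the CMV-scrR tumours reached at most 35.1. The 14 B cell genes summed to 530 CPM in library 4, to 41.2 to 75.0 in the other 3 CMV-GE11-siRE tumours and to 8.53 to 23.996 with CMV-scrR. In that library the 4 IgG genes took 80.1% of the heavy chain sum, and 48 Igkv segments reached a value of 10, the most abundant with 7.79% to 21.3% of the Igkv sum across the group. The 10 T cell genes summed to 1.75 to 31.4 CPM with CMV-scrR and 31.4 to 156 CPM under CMV-GE11-siRE, and 1 of 10 (Cd3d) rose. Macrophage genes fell in 4 of 8 cases on the deposited scale, while their CPM sum was 52.6 to 181 in the controls and 149 to 311 under CMV-GE11-siRE, so their direction depends on the scaling. On the deposited scale the median difference was 1.44 over the 10 B cell genes tested and 0.28 over the T cell genes. CPM itself moves the median gene by 2.11 on the log2 scale in this contrast, so these CPM sums move with the scaling. The part of these other cell types in the differences was not tested. Tnfrsf17, the plasma cell receptor BCMA, was at 0 in all CMV-siRE tumours and had a highest value of 19.4 with CMV-GE11-siRE. That maximum is close to the filter value of 10, and the gene was named after its values were seen.

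**Figure D5:**
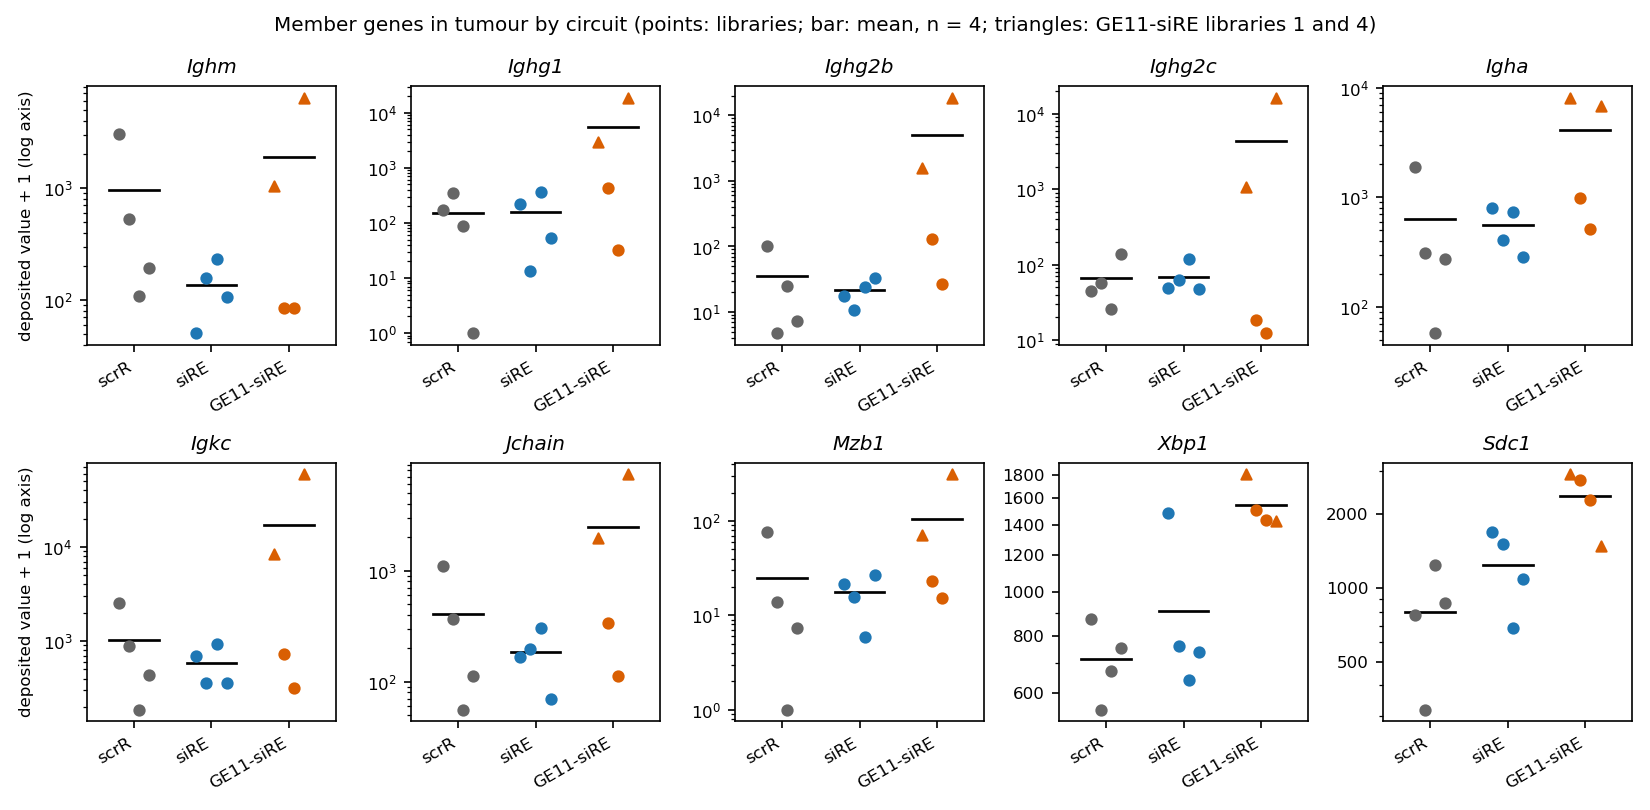
Deposited values in tumour by circuit, with 1 added on a log axis. Points are libraries, bars are means (n = 4), and triangles mark CMV-GE11-siRE libraries 1 and 4. For the constant genes, Jchain and Mzb1 the triangles lie above the 2 other CMV-GE11-siRE libraries, while for Xbp1 and Sdc1 all 4 lie above the controls.

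Xbp1 and Sdc1 behaved differently from the antibody genes in tumour. Xbp1 was 872, 552, 672 and 754 with CMV-scrR, 1486, 762, 642 and 739 with CMV-siRE and 1802, 1508, 1433 and 1424 under CMV-GE11-siRE. Sdc1 was 776, 318, 1237 and 863 with CMV-scrR, 1687, 1504, 682 and 1089 with CMV-siRE and 2898, 2759, 2283 and 1484 under CMV-GE11-siRE. For both genes all 4 CMV-GE11-siRE tumours lay above all controls, and libraries 1 and 4 did not stand out together. The differences were 1.13 ± 0.25 for Xbp1 (adjusted p = 0.00343 by limma) and 1.67 ± 0.39 for Sdc1 (adjusted p = 0.00463). Both passed without libraries 1 and 4.

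Epithelial genes, lung markers and genes of the secretory machinery moved with these 2. Scaling to CPM itself moves the median gene by 2.11 on the log2 scale in this contrast, so CPM sums in tumour move with the scaling. Of 8 tested genes of epithelia and other cells that make Sdc1, 4 rose with CMV-GE11-siRE, among them the cell adhesion genes Cdh1 (1.66 ± 0.31, adjusted p = 0.00149 by limma) and Epcam (1.63 ± 0.34, adjusted p = 0.00258), and 1 fell, the albumin gene Alb (-5.55 ± 0.75, adjusted p = 0.000494). The list's 9 members summed to 285 to 377 CPM with CMV-scrR, 336 to 1219 with CMV-siRE and 1432 to 3000 under CMV-GE11-siRE, and on the deposited scale the median difference of those tested was 0.91. Of the 5 lung markers 4 rose with CMV-GE11-siRE, and the list's median was 2.08. They summed to 2407 to 3544 CPM in the controls, 3307 to 54613 with CMV-siRE and 44640 to 91827 under CMV-GE11-siRE. The part of these genes in the differences of Xbp1 and Sdc1 was not tested. Of 18 secretory and unfolded protein genes 12 rose and 0 fell, and their median was 0.91. Ern1, the sensor that splices the Xbp1 transcript, rose by 1.58 ± 0.31 (adjusted p = 0.00187) and Sec61a1, a subunit of the protein channel of the endoplasmic reticulum, by 1.65 ± 0.32 (adjusted p = 0.00177). Of 15 tested plasma cell programme genes 5 rose, and Cd79b, part of the B cell receptor, was the 1 of 10 B cell genes that did (1.499 ± 0.57, adjusted p = 0.0474). All these list counts stand beside 22.1% of all genes called higher, and those of the plasma cell and B cell lists do not set them apart from other genes. The mitochondrial share moved with the same contrast, from 63.0% to 71.5% with CMV-scrR to 8.04% to 37.9% with CMV-GE11-siRE. With it as a covariate no member passed (Xbp1 0.17, Sdc1 1.26, Ighg2b 3.29 and Igha 0.51, adjusted p 0.990 to 0.993 by limma), and the mitochondrial share and the circuit cannot be told apart in tumour. When libraries were scaled to equal totals, the median difference over genes stood at 2.11 instead of 0.05 and 81.0% of genes were called higher instead of 22.1%. Members' differences shift with that median by construction.

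In lung none of the 10 genes passed by limma. With CMV-siRE 1.41% of 16165 genes were called, and with CMV-GE11-siRE 0% were. At an unadjusted p under 0.05 there were 4 of 10 members with CMV-siRE, beside 17.6% of all genes, and 4 of 10 with CMV-GE11-siRE, beside 7.9%. Ighg2c had the largest difference. It was 44.2, 33.8, 20.1 and 44.9 with CMV-scrR, 436, 251, 397 and 83.1 with CMV-siRE and 968, 523, 927 and 30.1 under CMV-GE11-siRE. All CMV-siRE libraries were above the controls, as were 3 of the 4 with CMV-GE11-siRE, library 4 being the exception. The differences were 2.81 ± 0.88 (adjusted p = 0.118) and 3.31 ± 0.88 (adjusted p = 0.255). Without CMV-GE11-siRE library 4 both passed, at 2.81 (adjusted p = 0.0102) and 4.47 (adjusted p = 0.00935).

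Igha was 1289, 2410, 2711 and 2059 in control lung, 4601, 5142, 6476 and 3121 with CMV-siRE and 4750, 10859, 5440 and 1181 under CMV-GE11-siRE. The differences were 1.20 ± 0.50 and 1.06 ± 0.50 (adjusted p = 0.229 and 0.632 by limma). Jchain differed by 1.28 ± 0.45 and 1.10 ± 0.45 (adjusted p = 0.156 and 0.548), again with CMV-GE11-siRE library 4 as low as the controls. That library had 365 for Jchain and 1440 for Igkc, where the other 3 had 1029 to 2656 and 3760 to 6794. Xbp1 and Sdc1 differed little in lung, with differences from control between -0.10 and -0.01 and standard errors of at most 0.14. Cxcl13 rose with CMV-siRE by 3.06 ± 0.38 (adjusted p = 0.00172), from 64.9 to 546 on average. The 14 B cell genes summed to 256 to 369 CPM with CMV-scrR, 240 to 502 with CMV-siRE and 340 to 501 under CMV-GE11-siRE, and none passed. Macrophage genes moved with CMV-siRE, 4 of 10 having risen, with sums of 586 to 769 CPM in controls, 789 to 960 with CMV-siRE and 513 to 649 under CMV-GE11-siRE, and their part was not tested.

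In kidney, which had the lowest control CPM of the 6 constant genes and Jchain, none of the 9 genes tested passed by limma, and 0% of the 15105 genes tested did in any of its comparisons. At an unadjusted p under 0.05 there were 6 of the 9 with CMV-GE11-siRE, beside 8.06% of all genes, and 4 with CMV-siRE, beside 9.84%. Igha was 41.1, 81.5, 49.0 and 65.5 with CMV-scrR, 1193, 124, 126 and 331 with CMV-siRE and 1013, 249, 225 and 585 under CMV-GE11-siRE. All 8 libraries of the EGFR circuits lay above the controls, and the differences were 2.27 ± 0.67 (adjusted p = 0.405) and 2.88 ± 0.67 (adjusted p = 0.520). Igkc was 44.5, 89.4, 49.5 and 58.7 with CMV-scrR and 820, 426, 155 and 357 with CMV-GE11-siRE, a difference of 2.66 ± 0.62 (adjusted p = 0.520). Ighg2c was at most 3.82 in control kidney and 270, 25.1, 20.4 and 11.3 with CMV-GE11-siRE. CMV-siRE library 1 was the highest of its group for Igha, Igkc at 686 and Ighg2c at 100, where the other 3 had Ighg2c values under 1. The 14 B cell genes summed to 25.6 to 31.7 CPM in the controls, 20.9 to 27.8 with CMV-siRE and 13.1 to 78.4 under CMV-GE11-siRE, where library 4 was the lowest and library 1 the highest. The 10 T cell genes summed to 14.1 to 26.3 CPM in the controls, 14.3 to 96.5 with CMV-siRE and 29.3 to 78.4 under CMV-GE11-siRE, the last without overlap with the controls. Macrophage genes summed to 126 to 180, 107 to 286 and 156 to 275 CPM in the same order. None of the T cell genes passed, their median difference with CMV-GE11-siRE was 0.95, and the part of both lists in the antibody values was not tested. Ighm differed by -0.20 ± 0.36 with CMV-siRE and 0.93 ± 0.36 under CMV-GE11-siRE (adjusted p = 0.833 and 0.520).

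Thymus had the IgA gene above control in all libraries, with no call. None of the 10 genes passed by limma with either circuit, where 0.00609% of the 16421 genes tested were called with CMV-siRE and 0% under CMV-GE11-siRE. The counts at an unadjusted p under 0.05 were 4, beside 5.65% of all genes, and 1, beside 9.44%, the latter near the background. Igha was 1723, 2641, 1651 and 2480 with CMV-scrR, 5278, 5318, 4656 and 6950 with CMV-siRE and 3322, 2997, 3831 and 14496 under CMV-GE11-siRE. The differences were 1.40 ± 0.41 (adjusted p = 0.699) and 1.22 ± 0.41 (adjusted p = 0.472). Without CMV-GE11-siRE library 4, which stood apart across many genes, Igha passed with CMV-siRE at 1.40 (adjusted p = 0.00193). Xbp1 then passed too, at 0.33 (adjusted p = 0.0268). Control library 1 had an Ighg2c value of 2316, where the other 3 had 52.6, 224 and 120, and Ighg2c differed by 0.94 ± 1.24 and 1.53 ± 1.24 (adjusted p = 0.773 and 0.525).

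Set side by side, the differences of Igha from CMV-scrR were 1.59 in spleen, 1.40 in thymus, 1.20 in lung, 0.77 in liver, 2.27 in kidney and 0.72 in tumour with CMV-siRE. With CMV-GE11-siRE they were 1.20, 1.22, 1.06, -0.07, 2.88 and 2.88 in the same order of tissues. The spleen values passed with both circuits and the tumour value with CMV-GE11-siRE. For Ighm, the constant gene of the first isotype, the differences were 0.46, 0.59, 0.18, -0.18, -0.20 and -1.85 with CMV-siRE and 0.18, 0.33, 0.15, -0.08, 0.93 and 0.13 under CMV-GE11-siRE, and none passed. Whether a gene's difference varies between tissues was not tested, since the tables were scaled separately. The labels do not say whether same-numbered libraries of different tissues came from the same mouse. The tissues may therefore not be independent of each other.

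The 2 EGFR circuits differ by the GE11 peptide. On the deposited scale, with all 12 libraries of a tissue, no member passed between them by limma. The genes called in that comparison were 0.112% in spleen, 0.0069% in liver, 0.0214% in tumour, 0.0619% in lung and 0% in kidney and thymus. At an unadjusted p under 0.05 there were 4 members in tumour, beside 26.2% of all genes, and 2 in kidney, beside 3.97%. Spleen and liver had 1 each, beside 9.79% and 7.66%, which is near the background, and lung and thymus had 0, beside 9.97% and 2.81%. The tumour result depends on the scaling: with columns scaled to their total, 9 of the 10 members passed between the circuits (all but Ighg2c, adjusted p = 0.0509 by limma), in a fit that called 76.8% of all genes higher. With mitochondrial genes left out of the total, Ighg2b, Xbp1 and Sdc1 passed (adjusted p = 0.0437, 0.0404 and 0.0419), where 13.2% of genes were called higher. On the deposited scale Xbp1 passed in tumour without CMV-siRE library 1 (1.11 ± 0.18, adjusted p = 0.00319 by limma). In spleen Igha differed by -0.39 ± 0.24, with a 95% interval of -0.90 to 0.12, and Jchain by -0.24 ± 0.27, with an interval of -0.82 to 0.34. In tumour the interval of Ighg2b was 1.52 to 8.14 (adjusted p = 0.0891) and that of Sdc1 0.13 to 1.80 (adjusted p = 0.142). The intervals are wide enough to hold large differences, so the test does not show that the circuits act alike.

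Over all libraries the constant genes, Jchain and Mzb1 varied more with each other than with Xbp1 or Sdc1, a split that was weaker outside tumour. Deviations of log2(CPM + 1) from the mean of each tissue and circuit were correlated over the 72 libraries, as a description. Jchain had r = 0.95 with Igkc, 0.87 with Ighm and 0.85 with Igha. Over the 60 libraries outside tumour these were 0.905, 0.702 and 0.775. It had r = 0.20 with Xbp1 and 0.06 with Sdc1. Xbp1 and Sdc1 had r = 0.69 with each other, and 0.528 outside tumour. Outside tumour Ighm had r = 0.324 with Igha and 0.317 with Ighg1, beside 0.314 with Sdc1, and Mzb1 had 0.406 with Sdc1. Points share their library, its scaling and, in tumour, its mitochondrial share.

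Among 12096 genes outside the member list, immunoglobulin segments and predicted genes, the 8 most like Jchain in these deviations were Pou2af1 (r = 0.81), Blnk (0.73), Cd79a (0.72), Cd37 (0.72), Cd72 (0.71), Cmtm7 (0.70), Irf4 (0.70) and Cd53 (0.69). Pou2af1 encodes the B cell coactivator of octamer-binding factors, Blnk and Cd79a encode parts of B cell receptor signalling, and Irf4 a transcription factor of plasma cells. Over the 60 libraries outside tumour Pou2af1 had r = 0.60 and Blnk 0.42. Their ranks there were 7 and 230. Cd37 ranked 18, Cd79a 27, Cd53 55, Cmtm7 59, Cd72 146 and Irf4 150, so the choice of these genes leans on the tumour libraries.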

How the data were processed

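RNA-seq of total RNA from 6 tissues was deposited as 1 table per tissue. The values are a signal: fractional gene counts that the authors scaled per library, read here from the values, since the only tool in the submitters' processing notes is DESeq2, with no version; the aligner, counter, annotation and strand setting are not stated. Whole reads could not be recovered, so no count test or counting interval was made, and 4 libraries per group limit precision. Ensembl identifiers were matched to GENCODE M21 symbols.

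Within each tissue, log2(value + 1) of genes with at least 10 in at least 4 of 12 libraries was fitted with limma 3.58.1 (trend, R 4.3.3) over all 12 libraries, with 3 contrasts and Benjamini-Hochberg adjustment over all genes tested; ± after a difference is its standard error. The code was tested on simulated data. Tissues were normalised apart and were not tested against each other. The 10 members and the gene lists were chosen with earlier results of these data known. Named genes are all members; from each list up to 4 genes per comparison past the test with the largest difference, otherwise up to 2 with the highest mean; and the 8 genes most like Jchain. Ighg3, Ighe, Iglv1, Ighv14-4, Ms4a1, Tnfrsf17, Sftpb and Sftpc were named after their values were seen. Alternatives were another pseudocount, no filter, 3 other scalings, the mitochondrial share as a covariate, the replicate number as a block, only the 8 libraries compared, and each library left out.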

Additional observations from a re-analysis of the deposited data

Results flagged for a closer look

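In 8 of the 180 groups of 4 libraries (10 genes, 18 groups) the highest or lowest library stood apart from the others by a gap above the 95% critical value of Dixon's test for 4 values. Chance alone flags about 1 in 20 groups, so 8 is about as many as chance gives. Thymus CMV-GE11-siRE library 4 stood apart for Igha, at 14496 where the others had 2997 to 3831, and for Xbp1, at 3399 against 1915 to 2033. Spleen CMV-GE11-siRE library 4 had 151025 for Ighm, against 79567 to 88221 in the others, and was also the highest of its group for Ighg2c. Lung CMV-GE11-siRE library 4 had 21.1 for Ighg2b, against 275 to 459. Mzb1 stood apart in spleen CMV-scrR library 1, at 2786 against 1660 to 1786, and in liver CMV-GE11-siRE library 2, at 5.89 against 11.9 to 12.7. Kidney CMV-siRE library 1 had an Ighg2c value of 100.1, where the other 3 had 0 to 0.986. Sdc1 was 3969 in lung CMV-siRE library 3, against 5024 to 5158 in the others.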

How the results depend on the processing

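Over 177 gene and comparison results, 3570 refits were made: 3468 kept their side of the threshold, 44 lost a call, 58 gained one, and no called difference changed sign. Tumour was the tissue that moved most: its 4 calls became 18 with columns scaled to their total, 18 with immunoglobulin genes left out of that total, 9 with mitochondrial genes left out (of these, 9, 9 and 3 lie between the EGFR circuits), 0 when the mitochondrial share was a covariate, and 2 without CMV-GE11-siRE replicates 1 and 4, which was tried after seeing the data. The same covariate took the spleen calls from 5 to 0 and the thymus calls from 0 to 3. Fitted on only the 8 libraries compared, lung had 3 calls, thymus 2 and kidney 1 (Xbp1 with CMV-siRE), liver gained Ighg2b with CMV-siRE (adjusted p = 0.0427 by limma) and spleen lost Jchain with CMV-GE11-siRE (0.0842). Leaving out each library in turn gave 2 to 7 calls in tumour, 0 to 3 in lung, 2 to 4 in liver, 2 to 6 in spleen, 0 to 2 in thymus and 0 in kidney; the highest counts in lung, liver and thymus came without CMV-GE11-siRE library 4. Without a filter on low values tumour had 3 calls and spleen 4. For spleen with CMV-siRE, scaling to the column total moved the all-gene median to 0.10 and the higher share of called genes from 37.5% to 64.7%. Same-numbered libraries did not deviate together (at most 2 of 4 numbers correlated over 0.1 in any comparison), so the replicate block, which gave 5 calls in tumour and 4 in spleen (Jchain with CMV-GE11-siRE then at an adjusted p of 0.0704 by limma), is given here only. Apart from the causes that lie in fewer libraries or in the scaling itself, the cause of these changes was not tested.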
